A study of Mus musculus with 8 samples.

Results

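The genes of the epithelial sodium channel and of the aldosterone pathway around it were followed in newborn mouse kidney cells with and without Dot1. The set holds 10 genes: the channel subunits Scnn1a, Scnn1b and Scnn1g, the mineralocorticoid receptor Nr3c2, the enzyme Hsd11b2, the kinase Sgk1, the ubiquitin ligase Nedd4l, the corticoid target Tsc22d3, the potassium channel Kcnj1 and the pump regulator Fxyd4. Its members were found as every non-control probe whose systematic name is a RefSeq transcript of one of these genes. All 10 genes had a probe, 11 probes in total, among 37018 genes or unnamed transcripts on the array. Of the 10, 9 genes passed the filter on dim probes and were tested among 23343, and Scnn1g did not pass.

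Both groups came from C57BL/6 mice at postnatal day 0. The cells were ureteric bud cells of the kidney, collected by flow sorting for GFP. The control group, called WT below, holds 4 wild-type samples. The other group, called KO below, holds 4 samples labelled DOT1-null, in which Dot1 was conditionally removed from Hoxb7-positive cells. Each sample was hybridised in Cy5 against 1 reference RNA, that of WT 3, in Cy3, and every value below is a log2 ratio of Cy5 to Cy3 unless said otherwise. The WT 3 array carried the same RNA in both dyes, so a ratio away from 0 on it is no difference between samples. The labels call the samples biological replicates without giving animals or litters, so a p-value here speaks only of the spread among the samples measured, which may be technical.

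The epithelial sodium channel carries sodium from the tubule fluid into principal cells of the collecting duct, the tubule segment that grows out of the ureteric bud. Aldosterone acts through the mineralocorticoid receptor. Sgk1 is one of its early targets and phosphorylates Nedd4l, the ligase that marks the channel for removal from the membrane, while Hsd11b2 inactivates glucocorticoids that would otherwise occupy the same receptor. Dot1l is a methyltransferase of histone H3, and in collecting duct cell lines a complex of Dot1 with AF9, the product of Mllt3, is known as a repressor of Scnn1a transcription that aldosterone relieves. A comparison of cells with and without Dot1 therefore asks about this pathway at its transcriptional end.

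The arrays differed in signal. The share of non-control spots with Cy5 well above background was 52.4% to 56.2% on the WT arrays and 59.1% to 95.2% on the KO arrays, with the highest share on KO 3. The scanner software set outlier or non-uniformity marks on 7665 spots of KO 3 and on 175 to 216 spots of each other array. The groups also occupied different rows of the 1 slide, so that genotype and row cannot be told apart. The targeted gene Dot1l did not pass the test. Its WT mean was -0.02 ± 0.08 (SD, n = 4) and its KO mean 0.16 ± 0.19 (SD, n = 4), with a difference of 0.18 ± 0.11 (SE; limma adjusted p = 0.342). The sources used here do not say whether its probe lies in the deleted stretch, and the value is no check of the labels. All 15 markers of ureteric bud and collecting duct were above background on all 8 arrays, Ret, Wnt11, Hoxb7 and Gata3 among them, and their levels are given with the other marker lists below.

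With all 8 arrays, 0 of the 9 tested pathway genes passed an adjusted p of 0.05 in limma. Over all genes the same test called 2 of 23343, or 0.00857%. At an unadjusted p under 0.05, 4 pathway genes were higher in KO (Sgk1, Fxyd4, Nedd4l and Tsc22d3) and 1 was lower (Hsd11b2), where 24.1% of all genes passed that mark in either direction. Differences of the 9 ranged from -0.49 for Hsd11b2 to 1.16 for Sgk1, with 6 above 0 and a median of 0.32. The median over all genes was -0.02, with 45.9% above 0 and the 5th to 95th percentile running from -0.45 to 0.53. For 8 of the pathway genes all 8 arrays gave a value. Among these, 3 genes were higher on every KO array than on any WT array and 1 was lower on every KO array, where 3.85% of the 21215 genes with full values were so separated upward and 7.64% downward.

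**Figure D1:**
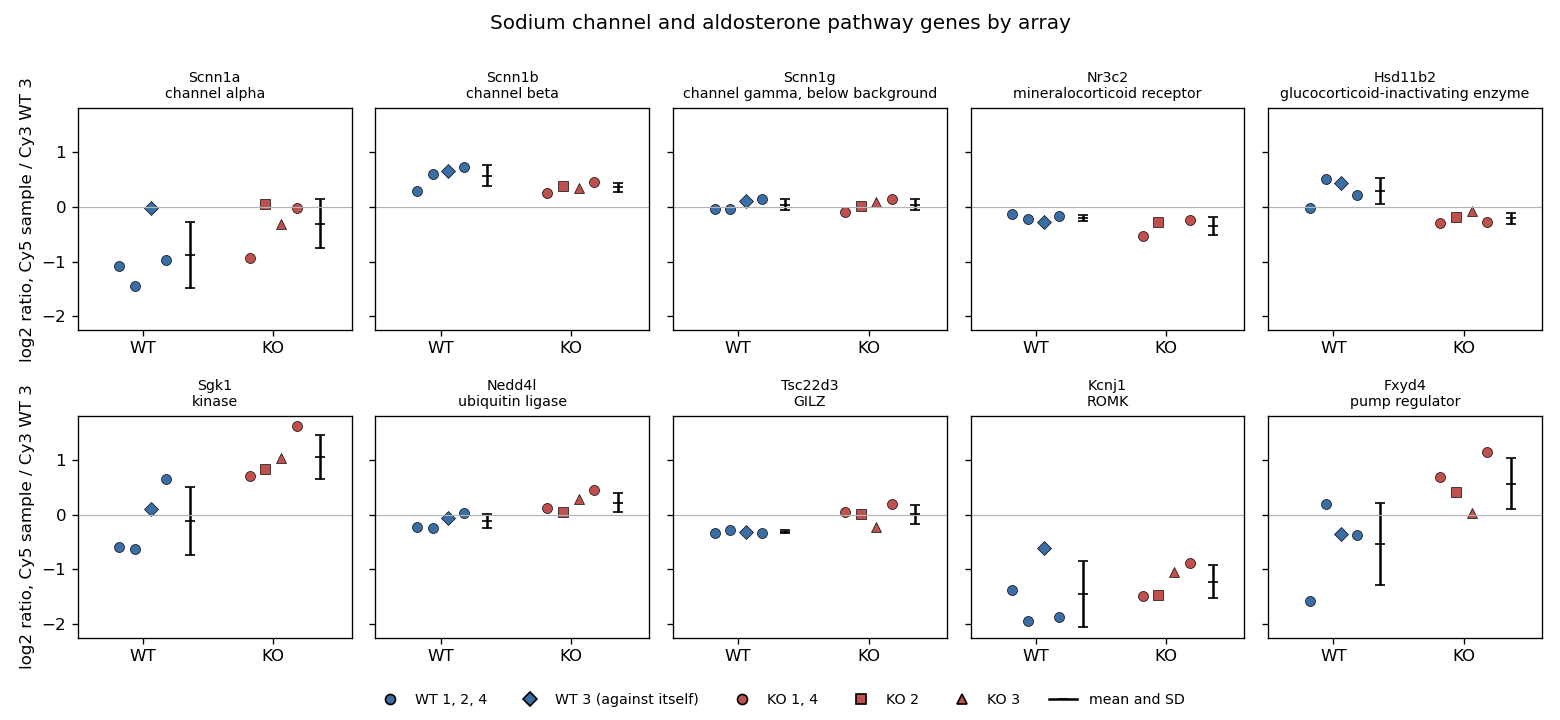
Log2 ratio of Cy5 (each sample) to Cy3 (the WT 3 reference) on the y axis for each of the 10 genes on each array, WT in blue and KO in red, with the mean and SD of each group as a bar. Sgk1, Nedd4l and Tsc22d3 lie higher on every KO array than on any WT array and Hsd11b2 lies lower, while Scnn1g was not well above background on any array and Nr3c2 has no value on KO 3.

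The channel subunits gave no call in either direction. Scnn1a (NM_011324), the alpha subunit and the one tied to Dot1 and AF9, had log2 ratios of -1.08, -1.45, -0.02 and -0.98 on WT 1 to WT 4. On KO 1 to KO 4 they were -0.93, 0.05, -0.32 and -0.02. WT 3 stood with the higher KO arrays and KO 1 with the lower WT arrays, so the groups overlapped. WT averaged -0.88 ± 0.61 (SD, n = 4) and KO averaged -0.31 ± 0.44 (SD, n = 4). The difference of 0.58 ± 0.31 (SE; limma adjusted p = 0.277) has a 95% interval from -0.11 to 1.27, which takes in 0 as well as a change of more than 2-fold upward. The WT arrays alone spanned 1.43 on the log2 scale, more than that difference.

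Scnn1b (NM_011325) encodes the beta subunit. Its log2 ratios were 0.29, 0.60, 0.66 and 0.72 in WT and 0.26, 0.39, 0.34 and 0.45 in KO. The KO values sat within a narrower band, and WT 1 fell among them. The WT mean was 0.57 ± 0.19 (SD, n = 4) and the KO mean 0.36 ± 0.08 (SD, n = 4), with a difference of -0.21 ± 0.11 (SE; limma adjusted p = 0.269; 95% interval -0.45 to 0.03). The ratio of 0.66 on WT 3, where both dyes held the same RNA, shows how far this probe lay from 0 with no difference between samples.

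Scnn1g (NM_011326), the gamma subunit, was not well above background on any of the 8 arrays. Its median Cy5 intensity was 58 to 62 on the WT arrays, against a local background of 61.5 to 64. On KO 1 to KO 4 the intensity was 61.5, 70.5, 116 and 57, and the local background 68, 64.5, 76 and 64. The highest of these came from KO 3, the array that was brighter over the whole slide. The gene was not tested and no fold is given.

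The receptor gene gave no call either. Nr3c2 (NM_001083906), the mineralocorticoid receptor, had log2 ratios of -0.14, -0.23, -0.28 and -0.18 in WT and -0.54, -0.27 and -0.24 on KO 1, KO 2 and KO 4. Its spot on KO 3 was marked as an outlier and left out, so the fit used 3 KO arrays. KO 1 was the lowest array, and KO 2 and KO 4 fell within the WT values. The means of -0.21 ± 0.06 (SD, n = 4) and -0.35 ± 0.17 (SD, n = 3) differed by -0.14 ± 0.10 (SE; limma adjusted p = 0.426; 95% interval -0.38 to 0.09). Without KO 1 the difference was -0.05, and with the scanner software's own ratio it was -0.56, neither past the threshold (limma adjusted p = 0.824 and 0.270). The probe was dim, with Cy5 at 98 to 119 on the WT arrays against a local background of 65 to 70. On KO 1, KO 2 and KO 4 its Cy5 was 112, 190 and 115, so its ratios rest on little signal.

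Hsd11b2 (NM_008289), the enzyme that inactivates glucocorticoids in aldosterone target cells, was the pathway gene with the largest difference downward. Its log2 ratios were -0.02, 0.51, 0.43 and 0.22 in WT and -0.30, -0.18, -0.08 and -0.28 in KO. Every KO array was below every WT array, with KO 3 close to WT 1. WT averaged 0.28 ± 0.24 (SD, n = 4) and KO averaged -0.21 ± 0.10 (SD, n = 4), which is 1.41-fold lower in KO, with a difference of -0.49 ± 0.13 (SE; limma adjusted p = 0.112; 95% interval -0.78 to -0.21). The size of this difference moved with the signal used. It was -0.94 with the scanner's own ratio, -0.90 with median centring and -1.12 with Cy5 alone (limma adjusted p = 0.165, 0.111 and 0.298).

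Sgk1 (NM_001161845), the aldosterone-induced kinase, had the largest difference of the 9 tested pathway genes. Its log2 ratios were -0.60, -0.63, 0.11 and 0.65 in WT and 0.70, 0.84, 1.03 and 1.61 in KO. Every KO array was above every WT array, although KO 1 and WT 4 lay side by side and the WT arrays themselves spread widely. The WT mean of -0.12 ± 0.62 (SD, n = 4) compared with a KO mean of 1.04 ± 0.40 (SD, n = 4), 2.24-fold higher in KO. The difference of 1.16 ± 0.30 (SE; limma adjusted p = 0.112; 95% interval 0.49 to 1.84) took rank 182 from the top among the 23343 genes.

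Promoter windows of Sgk1 are shown because it is the pathway gene with the largest difference and a known direct target of corticoid receptors. RefSeq promoter windows of GRCm38.p6, running from 250 bases before to 50 after each transcription start, were searched on both strands for the palindromic corticoid response element, which is AGAACA, then 3 bases of any kind, then TGTTCT. Sgk1 has 6 such windows, and the table does not say which of them belongs to the transcript of the probe. The window at chr10:21993640-21993939 held the element without a mismatch, starting 189 bases before the transcription start. The 250 bases before that start, on the plus strand, are given here with the element's fixed bases in capitals.
Sgk1 chr10:21993640-21993889: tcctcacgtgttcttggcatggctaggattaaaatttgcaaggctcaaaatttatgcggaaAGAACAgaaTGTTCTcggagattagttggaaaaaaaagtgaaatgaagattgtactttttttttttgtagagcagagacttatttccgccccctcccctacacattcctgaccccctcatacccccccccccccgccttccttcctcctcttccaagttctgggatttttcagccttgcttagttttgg

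The best matches in the other 5 windows had 2 to 5 mismatches, and the 3 with the fewest are shown, leaving out 2 windows with 5 mismatches each. Capitals mark the bases that match the element in this set of Sgk1 windows, with the start of each window given on chromosome 10 of GRCm38.p6.
Sgk1 window from 21881934: gGAAtccgtTGTTCT
Sgk1 window from 21985854: AGAAgAttcTGaTCT
Sgk1 window from 21994416: AGgACAcggTGgcCa
The exact element occurs in 3 of 32851 promoter windows of the same length (0.00913%), and a match with at most 2 mismatches in 606 of them (1.84%). Of the 14 windows counted for 7 pathway genes, 2 had at most 2 mismatches, both of Sgk1. Scnn1a and Hsd11b2 had no window available to count. Any window of Nedd4l was left out of the search by choice, and the counts of 7 genes and 14 windows depend on that exclusion. These shares thus say nothing of Scnn1a, Hsd11b2 or Nedd4l. The 20 windows of 14 other corticoid target genes had 0 such matches. Zbtb16, Cebpd, Tgm2 and Cavin2, the rest of the list of 18 described below, had no window counted. A match is a run of letters only, and no binding was measured.

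Nedd4l (NM_031881), the ligase that removes the channel and the substrate of Sgk1, followed Sgk1 in direction. On its brighter probe the log2 ratios were -0.22, -0.24, -0.07 and 0.03 in WT and 0.11, 0.05, 0.28 and 0.44 in KO. The groups did not overlap, with KO 2 just above WT 4. Means were -0.12 ± 0.13 (SD, n = 4) and 0.22 ± 0.18 (SD, n = 4), a difference of 0.34 ± 0.11 (SE; limma adjusted p = 0.131; 95% interval 0.09 to 0.59). The other probe read -0.28, -0.10, -0.23 and -0.06 in WT and 0.43, -0.16, -0.04 and 0.03 in KO, where KO 2 fell among the WT arrays. Its difference was 0.23 ± 0.13 (SE; limma adjusted p = 0.292 over all probes). Both probes thus differed in the same direction, but the arrays of one of them overlapped. With median centring in place of loess the difference of the brighter probe was -0.08, where the median over all genes was itself -0.30.

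Tsc22d3 (NM_001077364) encodes GILZ, a corticoid-induced leucine zipper protein that promotes sodium channel activity. Its log2 ratios were -0.34, -0.27, -0.32 and -0.33 in WT and 0.05, 0.01, -0.23 and 0.20 in KO. The WT arrays lay almost on top of each other, and every KO array was higher, with KO 3 nearest to WT. The WT mean of -0.32 ± 0.03 (SD, n = 4) compared with a KO mean of 0.0046 ± 0.18 (SD, n = 4), 1.25-fold higher in KO. The difference was 0.32 ± 0.10 (SE; limma adjusted p = 0.125; 95% interval 0.10 to 0.55). With median centring it was -0.10, or 0.20 above the median of all genes under that setting.

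Fxyd4 and Kcnj1 belong to the transport machinery beside the channel. Fxyd4 (NM_033648), also called CHIF, is an aldosterone-responsive regulator of the sodium pump in the collecting duct. Its log2 ratios were -1.58, 0.19, -0.36 and -0.37 in WT and 0.69, 0.41, 0.02 and 1.14 in KO. WT 1 was far below the other WT arrays, and KO 3 was below WT 2, so the groups overlapped on that pair. Means of -0.53 ± 0.75 (SD, n = 4) and 0.56 ± 0.47 (SD, n = 4) differed by 1.10 ± 0.36 (SE; limma adjusted p = 0.131; 95% interval 0.29 to 1.90). This was 2.14-fold higher in KO and took rank 220 from the top of all genes.

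Kcnj1 (NM_019659) encodes ROMK, the potassium channel through which principal cells and the thick ascending limb release potassium. Its log2 ratios were -1.38, -1.94, -0.61 and -1.87 in WT and -1.48, -1.47, -1.06 and -0.89 in KO. The groups overlapped throughout, with WT 3 the highest array of all. Means were -1.45 ± 0.61 (SD, n = 4) and -1.22 ± 0.30 (SD, n = 4), a difference of 0.23 ± 0.28 (SE; limma adjusted p = 0.649; 95% interval -0.40 to 0.85). That value was 0.50 without WT 3, 0.06 without WT 2, 0.09 without WT 4 and 0.11 without KO 4, and -0.39 with median centring, none of them past the threshold.

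Which arrays entered the fit decided whether any pathway gene was called, as it did for all genes, where leaving out KO 2 raised the number called from 2 to 4947. KO 2 carried 181 marked spots, within the range of the arrays other than KO 3. Of the arrays left out singly, KO 2 gave the most calls. The calls without it, here and for the lists below, thus describe how far calling depended on 1 array. Without KO 2, limma called 3 of the 9, with Sgk1 at 1.23 (adjusted p = 0.0309) and Nedd4l at 0.40 (adjusted p = 0.0348) higher and Hsd11b2 at -0.50 (adjusted p = 0.0327) lower. Over all genes the same fit called 10% higher and 11.2% lower, so 2 of 9 and 1 of 9 are read against those shares. Without KO 2 and KO 3 it also called 3, now Fxyd4 at 1.45 (adjusted p = 0.0474) and Tsc22d3 at 0.44 (adjusted p = 0.00994) higher and Hsd11b2 at -0.58 (adjusted p = 0.0317) lower, where 13.5% of all genes were higher and 10.1% lower. Sgk1 then stood at 1.27 (adjusted p = 0.0576) and Nedd4l at 0.40 (adjusted p = 0.0589). Hsd11b2 was the only pathway gene called in both fits. Without KO 3 alone limma called 0 pathway genes and 8 over all genes. At an unadjusted p under 0.05 that fit placed 5 of them, and 4942 genes over all genes tested. No pathway gene passed when KO 1, KO 4 or any single WT array was left out. The sizes moved less than the calls did, since the values for Sgk1 lay between 1.16 and 1.27 and those for Hsd11b2 between -0.58 and -0.49 over these fits with and without KO 2 and KO 3.

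**Figure D2:**
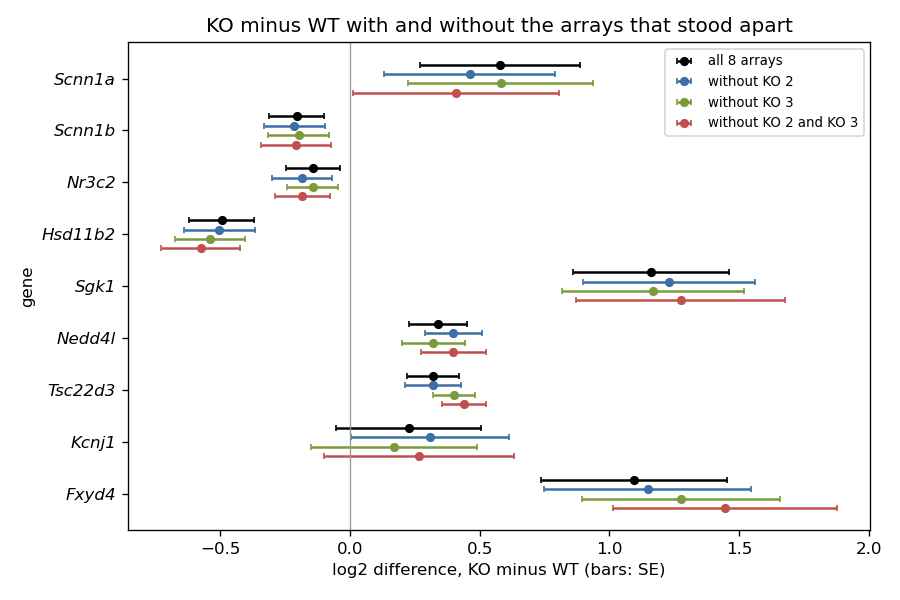
Log2 difference between KO and WT (x axis) with its SE for the 9 tested pathway genes, from all 8 arrays (black) and without KO 2 (blue), KO 3 (green) or both (red). Each gene keeps its side of 0 in all 4 fits. Only the bars of Kcnj1 reach 0, in every fit but that without KO 2, and a bar of 1 SE is no test.

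The pathway genes did not move as one block across the arrays. Over the 8 arrays Sgk1 and Nedd4l had a Pearson correlation of 0.96, while Scnn1a and Scnn1b had -0.06 and Sgk1 and Hsd11b2 had -0.66. These are descriptions over 8 points that share the reference RNA and the group difference. Among 13354 named genes with full values, those most like Sgk1 by this measure were Timp3 at 0.99, Shroom2 at 0.97 and Zbtb16 at 0.97. Those most like Scnn1a were Esrrb at 0.94, Mrps6 at 0.94 and Klf9 at 0.93. Zbtb16 and Klf9 are themselves corticoid-responsive genes. Hsd11b2 ran closest with Dbndd1 at 0.98, Asap1 at 0.97 and Tmem81 at 0.95, and Scnn1b with Mphosph10 at 0.95, Hyal3 at 0.94 and Zfp273 at 0.93. For Nedd4l they were Camsap3, Picalm and Sec62, from 0.97 to 0.98, and for Tsc22d3 Plet1, Stk19 and Tmed8, over the same range. Fxyd4 was nearest to Col25a1 at 0.96, Wscd2 at 0.94 and Crisp3 at 0.93. Kcnj1 was nearest to Mfsd4a, Uqcrq and Atp5h, all at 0.98.

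Other genes induced by glucocorticoids or mineralocorticoids were examined as a list of 18, without the pathway genes above. With all 8 arrays 0 of the 18 passed in limma, while 10 were higher and 0 lower at an unadjusted p under 0.05. The share of all genes at that mark, in either direction, was 24.1%, which also stands behind such counts for the lists that follow. Their differences were above 0 for 14 and below 0 for 4, with a median of 0.49 beside -0.02 for all genes. Zbtb16, a zinc finger repressor strongly induced by glucocorticoids, had log2 ratios of -0.16, -0.32, 0.25 and 1.01 in WT and 1.24, 1.75, 2.00 and 2.12 in KO. All KO arrays were above all WT arrays, and the difference was 1.58 ± 0.29 (SE; limma adjusted p = 0.103), or 2.53 with the scanner's own ratio. Edn1, which encodes the peptide endothelin and is an aldosterone target in the collecting duct, differed by 0.71 ± 0.13 (SE; limma adjusted p = 0.103), also without overlap, and by 1.22 with the scanner's ratio. Fkbp5, a co-chaperone that dampens the glucocorticoid receptor, differed by 0.73 ± 0.18 (SE; limma adjusted p = 0.112), and its KO 1 value of -0.42 lay below WT 3 at -0.33. Without KO 2 limma called 6 of the 18 higher and 0 lower, where 10% of all genes were higher and 11.2% lower. Without KO 2 and KO 3 it called 5 higher and 0 lower, where 13.5% of all genes were higher and 10.1% lower.

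**Figure D3:**
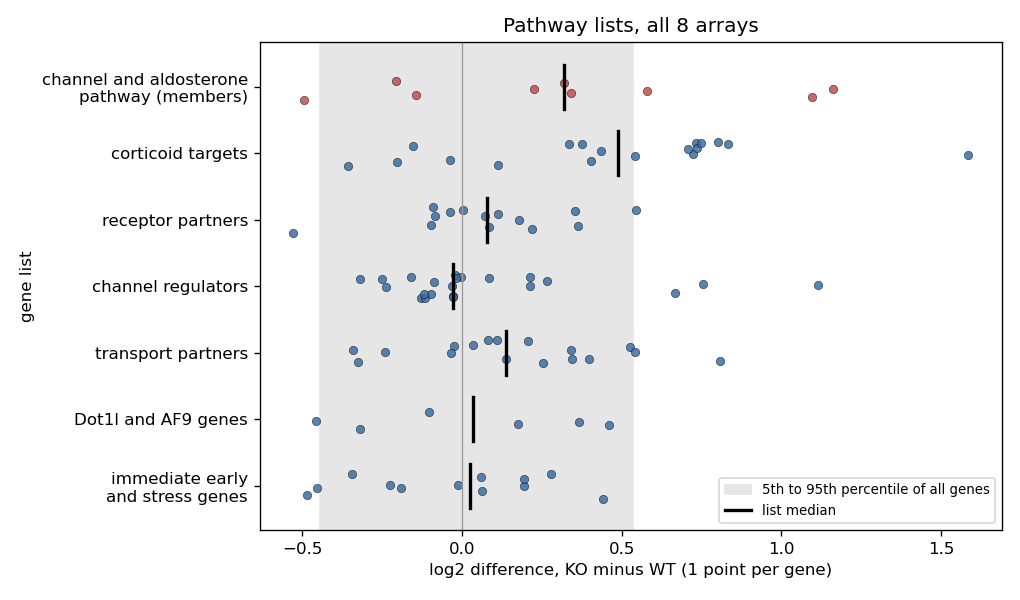
Log2 difference between KO and WT with all 8 arrays (x axis), 1 point per gene, for the 9 tested pathway genes (red) and the other lists (blue), with each list's median as a bar and the 5th to 95th percentile of all genes shaded. The corticoid targets have a median of 0.49 and the pathway genes 0.32, and the medians of the other lists lie between -0.03 and 0.14.

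The corticoid receptors' partners were read from 14 genes, 9 above and 5 below 0, with a median of 0.08. At an unadjusted p under 0.05 4 were higher and 1 lower. Nr3c1, the glucocorticoid receptor, had a difference of 0.54 ± 0.15 (SE; limma adjusted p = 0.112) on its brightest probe and -0.41 on another, so its direction depends on the probe. Ncoa2, a receptor coactivator, differed by 0.35 ± 0.07 (SE; limma adjusted p = 0.105), with every KO array between -0.06 and 0.07 and every WT array between -0.40 and -0.33. That difference was 0.06 with Cy5 alone and 0.06 with median centring (limma adjusted p = 0.873 and 0.851). The median over all genes was -0.17 and -0.30 under these settings, and with median centring Ncoa2 stood 0.36 above it. Hsp90ab1, a chaperone of the receptors, differed by 0.36 ± 0.13 (SE; limma adjusted p = 0.142), which turned to -0.53 with median centring. Relative to the median of all genes under that setting Hsp90ab1 stood at -0.24.

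Channel regulators, the proteases, ligases, kinases and trafficking proteins that act on the channel protein, showed no common direction. All 22 were measured, 7 above and 15 below 0, with a median of -0.03 and 3 higher and 3 lower at an unadjusted p under 0.05. Tmprss4, a membrane serine protease that can activate the channel, had log2 ratios of 0.61, -0.02, -0.07 and 0.13 in WT and 1.67, 1.63, 0.71 and 1.10 in KO. KO 3 came close to WT 1 without overlap, and the difference was 1.12 ± 0.23 (SE; limma adjusted p = 0.105), or 1.82 with the scanner's ratio. Usp2, a deubiquitinase that counters Nedd4l at the channel, differed by 0.75 ± 0.22 (SE; limma adjusted p = 0.117), with KO 1 and KO 2 below WT 3. Mapkap1, a subunit of the kinase complex that activates Sgk1, differed by -0.32 ± 0.10 (SE; limma adjusted p = 0.131) without overlap.

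The transport partners take in the sodium pump, potassium channels and the kinases that act on distal salt transport. Of 19, 17 were measured, 12 above and 5 below 0, with a median of 0.14 that became 0.43 without WT 3. At an unadjusted p under 0.05 4 were higher and 1 lower. Kcnj16, a potassium channel subunit, differed by 0.52 ± 0.19 (SE; limma adjusted p = 0.151), and by -0.03 with median centring. The latter was 0.26 above the median of all genes under that setting. Wnk1, a kinase of the salt transport pathway, differed by 0.54 ± 0.19 (SE; limma adjusted p = 0.141) on one probe and 0.01 on another. Cul3, the scaffold of the ligase that degrades Wnk kinases, differed by -0.34 ± 0.11 (SE; limma adjusted p = 0.127), and no KO array reached a WT array.

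Genes of the Dot1 and AF9 complex were measured in 6 of 6 cases, 3 above and 3 below 0, with a median of 0.04. At an unadjusted p under 0.05 2 were higher and 2 lower. Mllt10, a Dot1 partner, differed by -0.46 ± 0.12 (SE; limma adjusted p = 0.112) without overlap. Mllt6 differed by 0.46 ± 0.15 (SE; limma adjusted p = 0.126), with KO 2 among the WT arrays, and by -0.12 with median centring. The latter was 0.18 above the median of all genes under that setting. Sirt1, a deacetylase reported to act with Dot1 on Scnn1a, differed by 0.36 ± 0.13 (SE; limma adjusted p = 0.141), again with KO 2 among the WT arrays.

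Markers of other cells moved across the same arrays as some of these genes. The 10 thick limb and distal tubule markers were all above background, and their median log2 ratio was -0.86, -1.10, 0.07 and -0.95 on WT 1 to WT 4 and -0.47, -0.59, -0.32 and -0.18 on KO 1 to KO 4. Scnn1a and Kcnj1, which distal parts of the nephron also express, likewise had their highest WT value on WT 3. Summed over the list, normalised Cy5 intensity ranged from 21827 to 52678 in WT and from 23368 to 38934 in KO. The part of these cells in the values of Scnn1a and Kcnj1 was not tested. Over the list 7 markers were above and 3 below 0, with a median difference of 0.25 and 0 past the threshold or an unadjusted p of 0.05 in limma. In such bulk samples fewer cells of a type and less RNA per cell cannot be told apart.

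The 15 ureteric bud and collecting duct markers, of the cells named in the labels, were 7 above and 8 below 0, with a median difference of -0.13. With all 8 arrays 0 passed in limma, and 1 was higher and 5 were lower at an unadjusted p under 0.05. Hoxb7, the gene that by label marks the cells from which Dot1 was removed, had log2 ratios of 0.11, 0.07, 0.04 and 0.05 in WT and -0.59, -0.53, -0.64 and -0.79 in KO. Every KO array was lower, with a difference of -0.71 ± 0.08 (SE; limma adjusted p = 0.0570). Wnt11, a signal of the bud tips, differed by -0.82 ± 0.23 (SE; limma adjusted p = 0.118) with overlap, and Calb1, a calcium-binding protein of the bud, by -0.54 ± 0.15 (SE; limma adjusted p = 0.117) without overlap. Pax2, a transcription factor of the bud, differed by -0.40 ± 0.09 (SE; limma adjusted p = 0.112) over 3 KO arrays, its KO 3 value being left out. Krt18, an epithelial keratin, was the marker higher at that mark, by 0.79 ± 0.20 (SE; limma adjusted p = 0.112). Without KO 2 limma called 1 of the 15 higher and 5 lower, where 10% of all genes were higher and 11.2% lower. Without KO 2 and KO 3 it called 0 higher and 4 lower, where 13.5% of all genes were higher and 10.1% lower. Their summed normalised Cy5 intensity ranged from 54558 to 77684 in WT and from 73010 to 87450 in KO. The part of these shifts in the pathway genes' values was not tested.

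Principal cell markers other than the pathway genes numbered 8, of which 1 was above 0 and 7 were below, with a median difference of -0.19, beside -0.49 for Hsd11b2 and 1.10 for Fxyd4. Aqp2, the water channel of principal cells, differed by -0.01 ± 0.30 (SE; limma adjusted p = 0.986). At an unadjusted p under 0.05 0 of the 8 were higher and 1 was lower, Ptger1 at -0.62 ± 0.14 (SE; limma adjusted p = 0.106). The groups did not overlap for Ptger1. Limma called it lower without KO 2 and without KO 2 and KO 3, where 11.2% and 10.1% of all genes were lower. The summed normalised Cy5 intensity of the 8 markers ranged from 13974 to 19784 in WT and from 14632 to 17259 in KO. The 12 measured immediate early and stress genes, which can respond to cell dissociation, had a median difference of 0.02, with 6 above and 6 below 0. Ier2, an immediate early regulator, differed by -0.45 ± 0.17 (SE; limma adjusted p = 0.161), the only gene of the list at an unadjusted p under 0.05. Jun, a subunit of the transcription factor AP-1, differed by -0.49 ± 0.24 (SE; limma adjusted p = 0.249), or by -0.27 without WT 2 and -1.30 with median centring. Junb, its relative, differed by -0.34 ± 0.18 (SE; limma adjusted p = 0.271). The medians of the immediate early and stress list were -0.19, 0.81, 0.16 and 0.42 in WT and 0.02, -0.05, 0.09 and 0.57 in KO. Those of the corticoid targets were -0.22, -0.35, 0.15 and -0.05 in WT and 0.09, 0.25, 0.38 and 0.62 in KO. KO 4 was the highest KO array in both lists, while WT 2 was the highest WT array in the first and the lowest in the second. The part of the immediate early and stress genes in the corticoid differences was not tested. Nephron progenitor, stroma, leukocyte and proximal tubule markers had median differences of -0.74, -0.40, -0.39 and -0.30. Podocyte and erythroid markers had -0.19 and -0.08, and endothelial and intercalated cell markers 0.14 and 0.12. With all 8 arrays 0 genes of these lists passed in limma, and the array medians of WT and KO overlapped in each list. For nephron progenitors they ran from 0.09 to 1.22 in WT and from -0.45 to 0.73 in KO. In that list Eya1 went the other way, at 1.11.

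**Figure D4:**
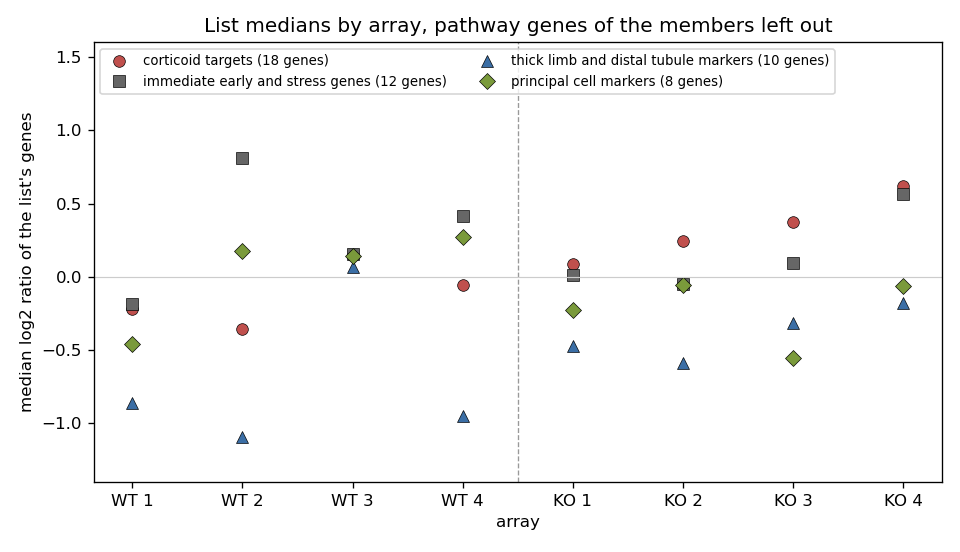
Median log2 ratio of each list's genes (y axis) on each of the 8 arrays (x axis), for corticoid targets, immediate early and stress genes, thick limb and distal tubule markers and principal cell markers, all without the pathway genes. The corticoid targets run from -0.35 to 0.15 over the WT arrays and from 0.09 to 0.62 over the KO arrays, and the thick limb markers are highest on WT 3 at 0.07.

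Across 22 alternative settings the differences of Scnn1a, Fxyd4 and Sgk1 stayed above 0 and those of Scnn1b, Nr3c2 and Hsd11b2 below it. Sgk1 ranged from 0.74 to 1.42 and passed the threshold in 2 of the 22 settings. Hsd11b2 ranged from -1.12 to -0.42 and passed in 3. Fxyd4 ranged from 0.55 to 1.45 and passed in 1, and Scnn1a ranged from 0.10 to 0.86 and passed in none. Median centring without loess gave the lowest value for each of Sgk1, Fxyd4 and Scnn1a, and it turned Nedd4l, Tsc22d3 and Kcnj1 below 0. Under that setting the median over all genes was -0.30, and relative to it Sgk1 stood at 1.04, Fxyd4 at 0.85, Scnn1a at 0.40, Nedd4l at 0.21, Tsc22d3 at 0.20, Kcnj1 at -0.09 and Hsd11b2 at -0.60. The receptor partners' median was then -0.45 and the channel regulators' -0.49, both below that of all genes, and the corticoid targets' was 0.18.

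**Figure D5:**
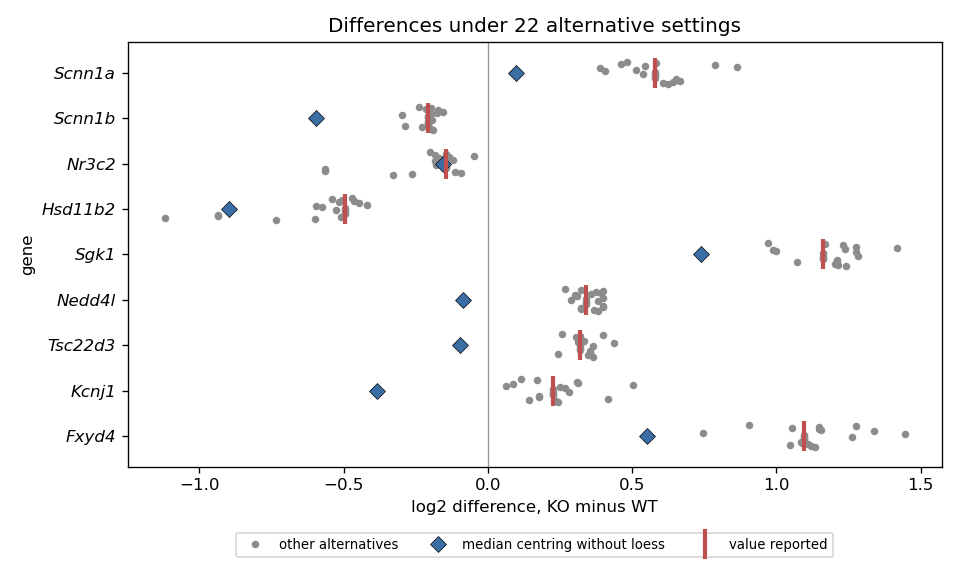
Log2 difference between KO and WT (x axis) of the 9 tested pathway genes with the reported settings (red bar), with median centring without loess (blue diamond) and with the other 21 alternatives (grey points). Nedd4l, Tsc22d3 and Kcnj1 cross 0 under median centring only, at -0.08, -0.10 and -0.39, where the median over all genes was -0.30.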

How the data were processed

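Per the submitters' processing notes the authors read the arrays with Agilent Feature Extraction 10.7.3.1, and per the file headers the annotation is for mm9. Their deposited files give each spot's intensity in both dyes and a log10 ratio of Cy5 to Cy3. The deposited series value table holds that log10 ratio too, within 0.00496 of it, with column medians of 0 on 7 arrays and 0.0152 on KO 3. No dye was swapped.

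Median intensities were corrected by normexp (offset 50) against local background and normalised by loess within arrays, giving control spots a weight of 0. The software was limma 3.58.1 in R 4.3.3. Spots marked as non-uniform or outlying were left out, and spots of a probe were averaged. Probes needed Cy5 well above background on 4 or more of 8 arrays and values on at least 3 arrays per group. The probe with the highest mean log2 intensity stood for its gene. KO and WT were compared by lmFit and eBayes (2-sided). The p-values were adjusted by Benjamini and Hochberg's method across 23343 genes, at a threshold of 0.05. The 95% intervals are those of the fit. Summed Cy5 intensities were taken after loess and quantile normalisation of the mean intensities between arrays, and are not scanner signals. All adjusted p-values come from limma. The fit was tested on simulated data. The array number limits the precision. Gene symbols came from RefSeq (GRCm38.p6).

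The members and lists were chosen with earlier results of these data known. Named were all members, Dot1l, any list gene past the threshold, the 3 list genes with the smallest p, and the 3 genes most like each member. Aqp2 and ureteric bud markers were named as defining markers, and Ptger1 and Eya1 beside them, after their values were seen. Replicate numbers were not taken as pairs, since same-numbered deviations did not all correlate. The 22 alternatives changed background correction, normalisation, filter, variance model, probe choice, block or arrays.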

Additional observations from a re-analysis of the deposited data

Results flagged for a closer look

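In 57 groups of 4 arrays examined, 1 value lay far from the others by Dixon's test at 95%, where chance flags about 1 in 20 groups. Junb, an immediate early transcription factor on the list of dissociation-sensitive genes, had a log2 ratio of 1.12 on WT 2 against 0.46, 0.51 and 0.55 on the other WT arrays. Its difference between KO and WT was -0.34 ± 0.18 (SE; limma adjusted p = 0.271), and -0.19 without WT 2. None of the sodium channel and aldosterone pathway genes had such a value.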

How the results depend on the processing

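The number of genes called, 2 with the reported settings, was 1 with an offset of 0, with no background subtraction and with the mean over probes. It was 0 with median centring, with Cy5 alone and with the replicate block, where limma still placed 6785, 3751 and 5264 genes at an unadjusted p under 0.05. It was 4 with no filter, 5 with scaling between arrays, 11 with an intensity trend, 4432 with array weights and 5510 without KO 2 and KO 3. Leaving out 1 array gave 1 to 4947 genes, 8 without KO 3 and 4947 without KO 2. Pathway genes called, and their probes, numbered 4 with array weights (Sgk1, Nedd4l and Tsc22d3 higher, Hsd11b2 lower), 3 without KO 2 and KO 3, 0 to 3 without 1 array, and 0 in the other settings, the replicate block included. Same-numbered arrays correlated at -0.24, 0.05, 0.11 and -0.02, and 1 of 4 WT arrays correlated best with its own number. Differences that changed sign did so under median centring, namely Nedd4l (-0.085), Kcnj1 (-0.39), Tsc22d3 (-0.10), Kcnj16 (-0.033), Hsp90ab1 (-0.53) and Mllt6 (-0.12). The median over all genes was -0.30 under that setting. Relative to it Nedd4l (0.21), Tsc22d3 (0.20), Kcnj16 (0.26) and Mllt6 (0.18) stayed above 0, and Kcnj1 (-0.09) and Hsp90ab1 (-0.24) did not. The cause of the sign changes was not tested. The median of the pathway genes was above 0 in 21 of 22 settings and that of the corticoid targets in 22 (0.18 to 0.67). Scnn1g was limited by signal over background.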
